A study of Mus musculus with 8 samples.

Results

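Genes of pericellular proteolysis and clot initiation, 9 in all, were followed in mouse bladder: the serine protease gene Prss23, the plasminogen activator genes Plau and Plat, the receptor gene Plaur, the serpin genes Serpine2 and Serpinf1, and the clotting genes F3, Thbd and Tfpi. They are 9 of the 38926 gene symbols in each deposited file, and all 9 passed the filter on low counts. Prss23 was chosen by its difference between obstructed and sham bladders in these libraries (edgeR adjusted p = 0.0453, rank 7 by p among 16370 genes tested). The other members were listed by function with results of the same libraries known, so the values of all 9 in this comparison are a description. Whole bladder was profiled by polyA RNA sequencing in 4 libraries labelled NeMO, a surgical partial obstruction of the bladder outlet that spares the nerves, and in 4 libraries from sham-operated mice (Sham). The labels name no other treatment, and the strain, age and sex of the mice are not in the sources used here. Library totals ran from 29451800 to 36375313 counts in NeMO and from 27212499 to 33459048 in Sham, and a member had between 223 and 14598 counts in a library. The file names carry the word Batch with a number, and what was handled together in a batch is not stated there. By that number, NeMO replicates 1 and 3 with Sham replicates 1 to 3 form batch 1, and NeMO replicates 2 and 4 with Sham replicate 4 form batch 2. Urothelial and smooth muscle markers of the bladder were present in all libraries: 14 urothelial markers summed to 7047 to 10385 CPM (counts scaled to library size by TMM) in NeMO and 8330 to 10883 in Sham (3 of 14 higher in NeMO), and none of either list passed edgeR's test. Nothing states that each library is a separate animal, so p-values measure the spread between these libraries only.

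Plasminogen is a circulating zymogen that is cut to plasmin, a broad protease of fibrin and extracellular matrix. Urokinase (Plau), held at the cell surface by its receptor (Plaur), and tissue-type activator (Plat) make that cut, and serpins trap the activators in inactive complexes. Clotting starts when tissue factor (F3) meets its plasma partner, is slowed by tissue factor pathway inhibitor (Tfpi), and is turned to anticoagulation by thrombomodulin (Thbd) on the vessel lining. The urothelium is a well-known site of urokinase synthesis, and thrombomodulin and Tfpi are typical endothelial products.

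The RefSeq promoter table for GRCm38.p6 held 6 of the 9 members (Prss23, Plaur, Serpine2, Serpinf1, F3 and Tfpi). Stretches from 200 to 51 bases before a start are shown for the 3 members whose 250 bases upstream hold the letters TGANTCA, the core recognised by AP-1 factors, which read the same on either strand. Capitals mark the match.
Prss23, the second of its listed starts (chr7:89518255-89518404, minus strand): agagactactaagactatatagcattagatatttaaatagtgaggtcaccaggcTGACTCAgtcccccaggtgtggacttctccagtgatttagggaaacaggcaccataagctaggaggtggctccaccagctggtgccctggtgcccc
F3 (chr3:121723337-121723486, plus strand): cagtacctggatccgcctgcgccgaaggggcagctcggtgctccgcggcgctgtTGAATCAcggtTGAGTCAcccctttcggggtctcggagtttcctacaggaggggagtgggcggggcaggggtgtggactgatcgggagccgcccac
Plaur (chr7:24462283-24462432, plus strand): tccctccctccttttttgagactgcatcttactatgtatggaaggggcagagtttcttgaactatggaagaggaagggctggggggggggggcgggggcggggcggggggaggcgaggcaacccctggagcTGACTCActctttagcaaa
F3 held 2 matches, beginning 146 and 135 bases before its start, Plaur 1 match at 69 bases, and Prss23 1 match at 146 bases before the start shown. Prss23 has 7 listed starts, and the match also lies in the window of a neighbouring one (169 bases before it), while the other 5 windows had none. Of 32851 windows of the same length over all genes, 6.75% held this core. Counted per gene, 7.82% of 27025 genes held it in at least 1 window, and a gene with more listed starts has more windows. A motif read by TEAD factors, GGAATG (searched on both strands, no overlap with the first), was in 12.6% of all windows and in none of the members' windows. The counts are per gene symbol and do not tell which start was used, and a match of letters is not a bound site.

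On GRCm38 (mm10), Prss23 spans chromosome 7 from 89507783 to 89527187 on the minus strand, Plau chromosome 14 from 20836660 to 20843385, and Plaur chromosome 7 from 24462484 to 24475968. Plat lies on chromosome 8 (22757727 to 22782844), Serpine2 on chromosome 1 (79794197 to 79861180, minus strand) and Serpinf1 on chromosome 11 (75409769 to 75422701, minus strand). F3 lies on chromosome 3 (121723537 to 121735048). Thbd and Tfpi are on the minus strand of chromosome 2 (148404466 to 148408188 and 84432855 to 84476775), and Thbd is a single exon. All are protein-coding genes. The antisense gene Prss23os shares 864 exonic bases with Prss23, or 22.9% of the exonic length of Prss23. No source used here gives the strand setting of the counting, so reads of the pair cannot be told apart there. No other member shares exonic bases with another annotated gene.

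Levels compared between genes are given per length, as TPM (a length-scaled share of the library), computed here from the counts and the GENCODE exonic lengths. In Sham bladders the order was Prss23 (231 ± 23.5 TPM, mean ± SD, n = 4 here and below), Plau (189 ± 16.5), Serpinf1 (113 ± 9.59), Thbd (99.2 ± 3.76), F3 (53.5 ± 6.36), Plat (30.2 ± 3.23), Tfpi (16.6 ± 1.58), Plaur (12.8 ± 2.13) and Serpine2 (7.75 ± 1.17). Prss23 and Plau overlapped in Sham (201 to 259 against 177 to 212 TPM), and every other pair of neighbours in that order was separated in all 4 Sham libraries. In NeMO Prss23 stood at 385 ± 53.7 TPM and was clear of Plau at 193 ± 17.7. Serpine2, at 20.5 ± 14.6 TPM in NeMO, stood above Plaur (15.8 ± 3.34) in mean level, and its range of 9.19 to 41.3 overlapped those of Plaur, Tfpi and Plat. Urokinase message was more abundant per length than that of tissue-type activator in each of the 8 libraries, with a ratio of 5.65 to 6.85 in Sham and of 3.74 to 9.38 in NeMO. The order and ratio depend on the merged exonic length, which was 8287 bases for Serpine2, 6241 for Plat, 2617 for Plaur and 2367 for Plau. Without length scaling, Sham means were 126 CPM for Plau, 53.1 for Plat, 18.1 for Serpine2 and 9.49 for Plaur. Serpine2 then stood above Plaur in Sham.

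Prss23 encodes a secreted serine protease of the trypsin fold whose natural substrates are not well established. It measured 418, 312, 417 and 378 CPM in NeMO replicates 1 to 4 and 233, 251, 269 and 225 in Sham replicates 1 to 4. Every NeMO library lay above every Sham library, and NeMO replicate 2 lay closest to them. The means were 381 ± 49.8 CPM in NeMO and 244 ± 19.8 in Sham, a log2 fold change (NeMO minus Sham) of 0.69 (SE 0.09), or 1.62-fold. Prss23 is the 1 member among the 12 genes past an adjusted p of 0.05 in edgeR's quasi-likelihood test, 0.0733% of those tested (7 higher in NeMO, 0.0428%, and 5 lower, 0.0305%). It is also the 1 member whose groups did not overlap in CPM, as for 8.19% of all genes tested (4.39% with NeMO all higher, 3.81% all lower). In TPM the groups of F3 (63.6 to 88.8 in NeMO, 47.6 to 61.0 in Sham) and Serpine2 (9.19 to 41.3 and 6.20 to 9.04) did not overlap either. The share of all genes without overlap in TPM was not computed. The edgeR call of Prss23 was the reason for its choice, and nothing is read from it. A list of 8 mast cell markers also stood higher in NeMO: 7 were tested, 6 were higher (Kit was lower), the median log2 fold change was 1.77 and none passed edgeR's test. Their mean log2 level was 1.60 to 2.70 in NeMO and 1.06 to 1.46 in Sham, without overlap, while their summed level overlapped (44.4 to 82.7 and 34.9 to 50.5 CPM). Their part in the Prss23 value was not tested.

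The size of the Prss23 difference varied little between settings, while its place beside the threshold did. The log2 value was 0.74 in batch 1 alone and 0.62 in batch 2 alone (edgeR adjusted p = 0.191 and 0.389), and from 0.66 to 0.74 with any 1 library left out. The call was kept without NeMO replicate 1 or 2 and lost without NeMO replicate 3 (edgeR adjusted p = 0.0687) or 4 (0.117). It was also lost without Sham replicate 1 (0.115), 2 (0.0654), 3 (0.0915) or 4 (0.229), and without the batch term (0.64, edgeR adjusted p = 0.0684). Without Sham replicate 4, batch 2 holds no Sham library, so the difference beside the batch term then comes from batch 1 only. The genes whose library profile was most like that of Prss23, among 11362 non-member genes of at least 5 CPM, were Kalrn, Atl3 and Btbd7. Their centred log2 CPM differed from that of Prss23 by a root mean square of 0.07, 0.11 and 0.12 over the 8 libraries, against a spread of 0.35 for Prss23 itself. Among the members F3 came closest, with a root mean square difference of 0.20.

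**Figure D1:**
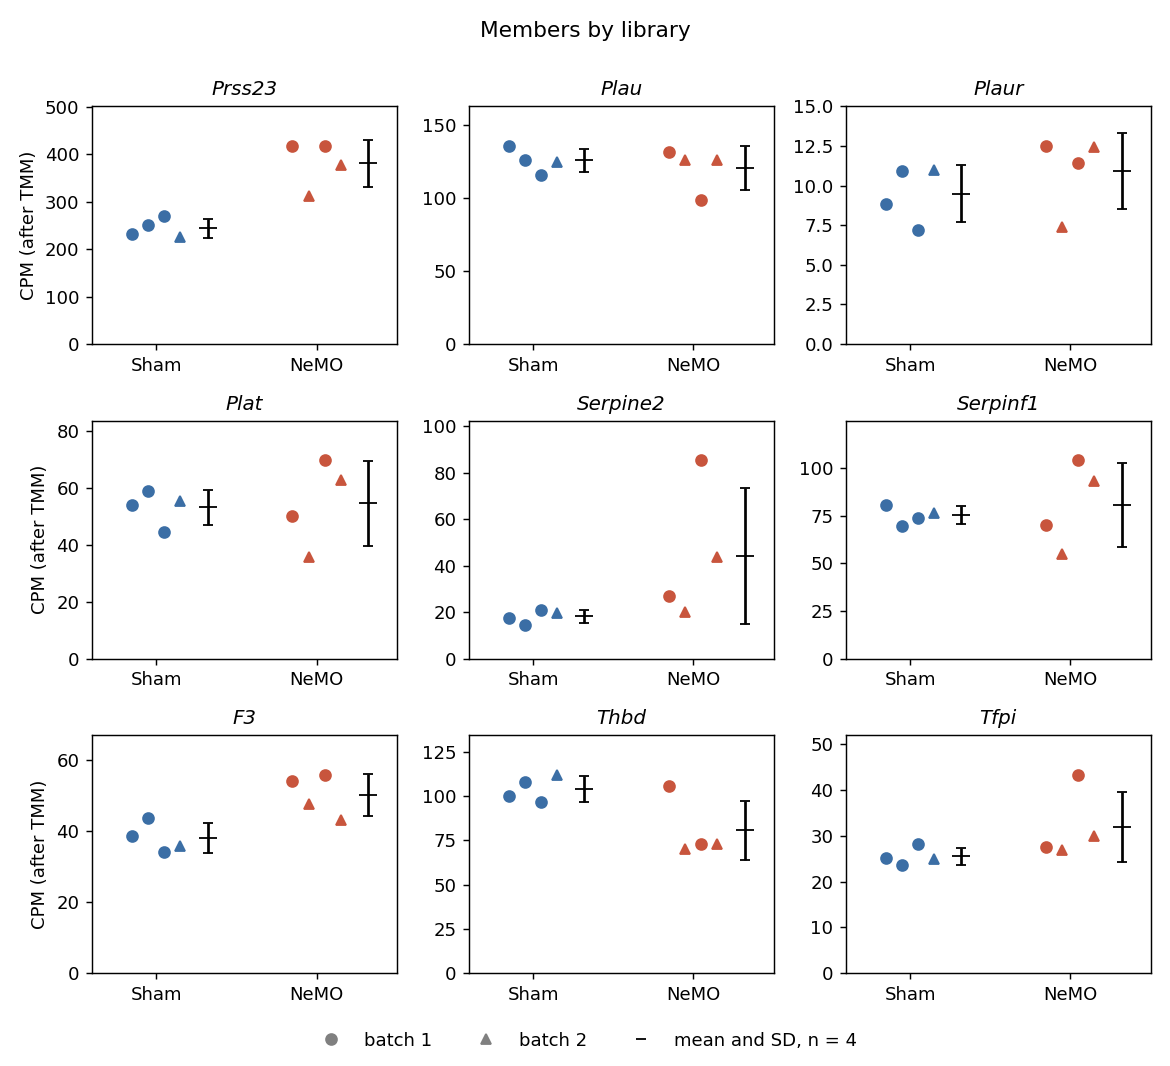
Level of each member in CPM after TMM scaling, in a panel per gene with the axis from 0, for the 4 Sham and 4 NeMO libraries. Circles are batch 1 and triangles batch 2, and the dash and bar give the mean and SD (n = 4). The Prss23 groups are separate, while Serpine2 is widely spread in NeMO, from 19.9 to 85.3 CPM.

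The activators and the receptor gave no difference that passed the test. Plau, which encodes urokinase, measured 132, 126, 98.6 and 126 CPM in NeMO replicates 1 to 4 and 136, 126, 116 and 125 in Sham replicates 1 to 4. The groups overlapped almost completely, with NeMO replicate 3 as the lowest library. Its log2 fold change was −0.08 (SE 0.10, edgeR adjusted p = 0.732), and it stood on the other side of 0 without NeMO replicate 3 (0.05), in batch 2 alone (0.03) and after a correction for transcript length (0.02). Plaur, the surface receptor that concentrates urokinase at the cell edge, was at 12.5, 7.38, 11.4 and 12.4 CPM in NeMO and 8.81, 10.9, 7.21 and 11 in Sham. The lowest value in each group was nearly the same, and 3 of the 4 NeMO libraries lay above all Sham libraries (a log2 difference of 0.21, SE 0.21, edgeR adjusted p = 0.629). In batch 2 alone Plaur stood at −0.14.

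Plat encodes tissue-type plasminogen activator, a product of endothelium and nerve. It was at 50.2, 35.6, 69.6 and 62.7 CPM in NeMO replicates 1 to 4 and at 53.9, 58.8, 44.6 and 55.2 in Sham. NeMO replicate 2 was the lowest and NeMO replicates 3 and 4 the highest of the 8, so the group means of 54.5 ± 15 and 53.1 ± 6.05 hid a wider spread in NeMO (a log2 difference of 0.06, SE 0.20, edgeR adjusted p = 0.894). Without NeMO replicate 3 the value was −0.11, and in batch 2 alone −0.16. The gene most like Plat in its library profile was Acvrl1 (root mean square difference 0.06 over the 8 libraries).

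Serpine2 encodes protease nexin-1, a serpin that inhibits thrombin, urokinase and tissue-type activator. It measured 27.0, 19.9, 85.3 and 43.7 CPM in NeMO replicates 1 to 4 and 17.6, 14.6, 20.7 and 19.5 in Sham. NeMO replicates 3 and 4 stood far above the Sham libraries, NeMO replicate 1 slightly above them, and NeMO replicate 2 within their range. The log2 fold change of 1.33 (SE 0.45), from 18.1 ± 2.67 to 44.0 ± 29.3 CPM, was the largest among the members and did not pass (edgeR adjusted p = 0.201, DESeq2 adjusted p = 0.0968). It was 0.66 without NeMO replicate 3, 1.68 in batch 1 and 0.72 in batch 2. Its closest library profiles were those of Adam12, Tro and Csgalnact1, at root mean square differences of 0.21, 0.23 and 0.26 against a spread of 0.79 for Serpine2 itself.

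Serpinf1 encodes pigment epithelium-derived factor, a serpin that does not inhibit proteases and is known for restraining vessel growth. It measured 70.1, 54.7, 104 and 93.0 CPM in NeMO and 80.7, 69.7, 73.8 and 76.5 in Sham, again highest in NeMO replicates 3 and 4 and lowest in NeMO replicate 2. Its means did not separate (80.5 ± 22.2 and 75.2 ± 4.61 CPM, a log2 difference of 0.12, SE 0.19, edgeR adjusted p = 0.770). The value was −0.07 without NeMO replicate 3 and −0.04 in batch 2 alone. Over the libraries Serpinf1 and Plat were the most alike pair of members, with a root mean square difference of 0.13. The 3 genes most like Serpinf1 were Mrc2, Scarf2 and Eng, each at 0.07.

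Cell type markers also differed between the NeMO libraries in which Serpine2, Serpinf1 and Plat were high and low. The summed level of 12 endothelial markers was 822 and 704 CPM in NeMO replicates 3 and 4 and 576 and 486 in replicates 1 and 2, against 556 to 651 in Sham. All 12 were detected and tested, 11 were higher in NeMO and none passed edgeR's test (median log2 fold change 0.14). The sum of 11 fibroblast markers, all detected, ran from 6177 to 10812 CPM in NeMO and from 7295 to 9020 in Sham, with 5 of the 11 higher, and was highest in NeMO replicate 3. The sum of 10 smooth muscle markers ran from 29989 CPM, in NeMO replicate 3, to 55723 in NeMO replicate 1, and from 35062 to 47063 in Sham, with 5 of the 10 higher. The sum of 9 adipocyte markers ran from 672 to 1642 CPM in NeMO and from 1558 to 3438 in Sham, with 0 of the 9 higher. The part of these shifts in the members' values was not tested. In bulk tissue, fewer cells of a type and less RNA per cell cannot be told apart.

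**Figure D2:**
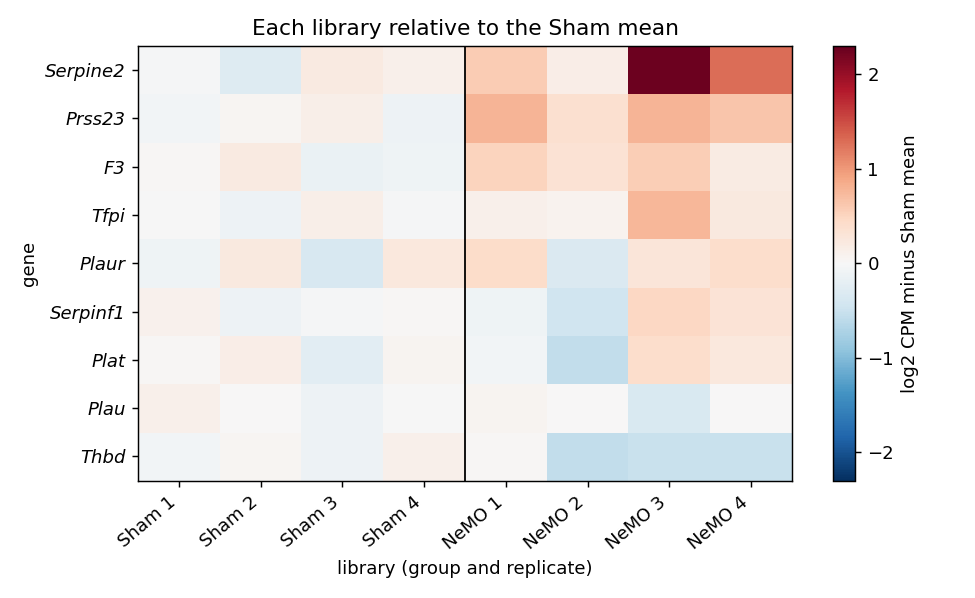
Colour gives the log2 CPM of each member (rows) in each library (columns) minus the mean of the 4 Sham libraries, red for higher and blue for lower, with a black line between the groups. Serpine2 reaches 2.25 in NeMO replicate 3 and 1.28 in NeMO replicate 4, while Prss23 lies between 0.36 and 0.78 in all 4 NeMO libraries.

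F3 encodes tissue factor, the membrane protein that starts clotting. It measured 54.2, 47.8, 55.9 and 43.2 CPM in NeMO replicates 1 to 4 and 38.6, 43.7, 34.1 and 35.7 in Sham. The groups met at a single point, where NeMO replicate 4 lay just under Sham replicate 2. The means were 50.2 ± 5.85 and 38.0 ± 4.21 CPM, a log2 fold change of 0.45 (SE 0.09) or 1.37-fold, which did not pass over all genes (edgeR adjusted p = 0.0850). F3 passed without a filter on low counts (0.46, edgeR adjusted p = 0.0394, where 0.693% of genes were called) and in DESeq2 (0.46, adjusted p = 0.00479, where 5.43% were called). It was 0.50 in batch 1, 0.36 in batch 2 and 0.39 to 0.50 with 1 library left out. Its closest profiles were Pikfyve, Ankrd26 and Pds5a (root mean square differences 0.06, 0.09 and 0.09).

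Thbd encodes thrombomodulin, the thrombin receptor of the vessel lining that starts protein C activation. It measured 106, 70.2, 73.2 and 73.2 CPM in NeMO replicates 1 to 4 and 100, 108, 96.6 and 112 in Sham. NeMO replicates 2, 3 and 4 lay below all Sham libraries, and NeMO replicate 1 lay among them. The log2 fold change was −0.35 (SE 0.13), from 104 ± 7.20 to 80.6 ± 16.8 CPM, and did not pass (edgeR adjusted p = 0.213). Without NeMO replicate 1 it was −0.55 and passed (edgeR adjusted p = 0.0176, where 3.92% of genes were called). In batch 1 alone it was −0.18 and in batch 2 alone −0.64. Without Sham replicate 4 it was also −0.18. That value is the batch 1 contrast again, because batch 2 then holds no Sham library. Of 12 endothelial markers 11 were higher in NeMO (median log2 fold change 0.14). Among them Pecam1 was at 112 CPM in both groups and Cdh5 at 69.9 in NeMO and 55.1 in Sham. Of 14 urothelial markers 3 were higher in NeMO (median −0.23). None of either list passed edgeR's test, and the part of these cell types in the Thbd value was not tested. Fbp1, Nfkbia and C2cd2l had the profiles most like Thbd (0.09, 0.10 and 0.10).

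Tfpi encodes the inhibitor of the tissue factor complex. It was at 27.5, 26.9, 43.3 and 29.9 CPM in NeMO and 25.2, 23.6, 28.1 and 25 in Sham. NeMO replicate 3 stood apart, NeMO replicate 4 lay just above the Sham range and the other NeMO libraries within it (a log2 difference of 0.36, SE 0.15, edgeR adjusted p = 0.230). Leaving out NeMO replicate 3 gave 0.14, leaving out NeMO replicate 1 gave 0.50, and the value was 0.47 in batch 1 and 0.19 in batch 2. Esyt2, Grb10 and Egfr were closest in profile (0.08, 0.08 and 0.09).

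**Figure D3:**
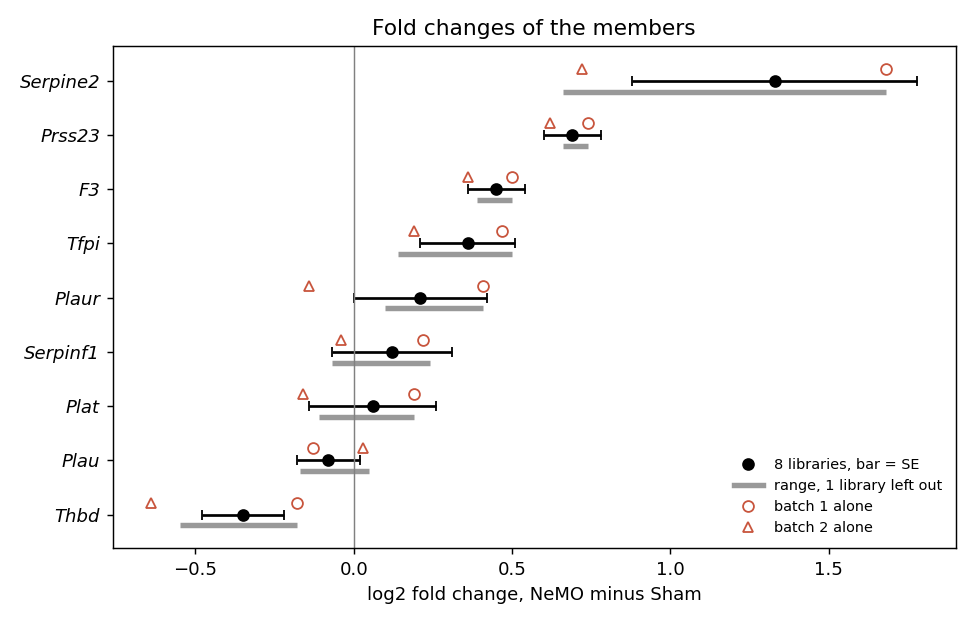
Log2 fold change of each member, NeMO minus Sham. Black points and bars are the values of the 8 libraries with their SE, grey bars the range with 1 library left out, and open circles and triangles the values in batch 1 and batch 2 alone. Prss23 and F3 have the narrowest ranges of the members above 0 (0.66 to 0.74 and 0.39 to 0.50), and Serpine2 the widest (0.66 to 1.68).

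Of the 9 members 7 lay above 0 in NeMO and 2 below, and their median log2 value was 0.21, beside −0.01 over all genes tested. In edgeR 4 had an unadjusted p under 0.05 on the higher side and 1 on the lower, beside 9.38% and 9.14% of all genes tested. These counts describe a list assembled with the same results known.

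Pairs of members were also set side by side within each library, as ratios of TPM, with no test. Message for thrombomodulin relative to tissue factor (Thbd over F3) was 1.32, 0.998, 0.889 and 1.15 in NeMO replicates 1 to 4 and 1.76, 1.67, 1.92 and 2.14 in Sham. Every NeMO ratio was below every Sham ratio (means 1.09 ± 0.189 and 1.87 ± 0.207). On the same TPM scale F3 alone was also without overlap (63.6 to 88.8 in NeMO, 47.6 to 61.0 in Sham), while in CPM it overlapped. Thbd alone overlapped on both scales. The Thbd to F3 ratio was 1 of 4 ratios formed, from members listed with results known. How often other gene pairs separate was not computed. The other 3 overlapped: F3 relative to Tfpi (2.79 to 4.26 in NeMO, 2.62 to 4.01 in Sham), Plau relative to Plaur (9.57 to 18.9 and 12.5 to 17.8), and Plau relative to Plat, given above.

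**Figure D4:**
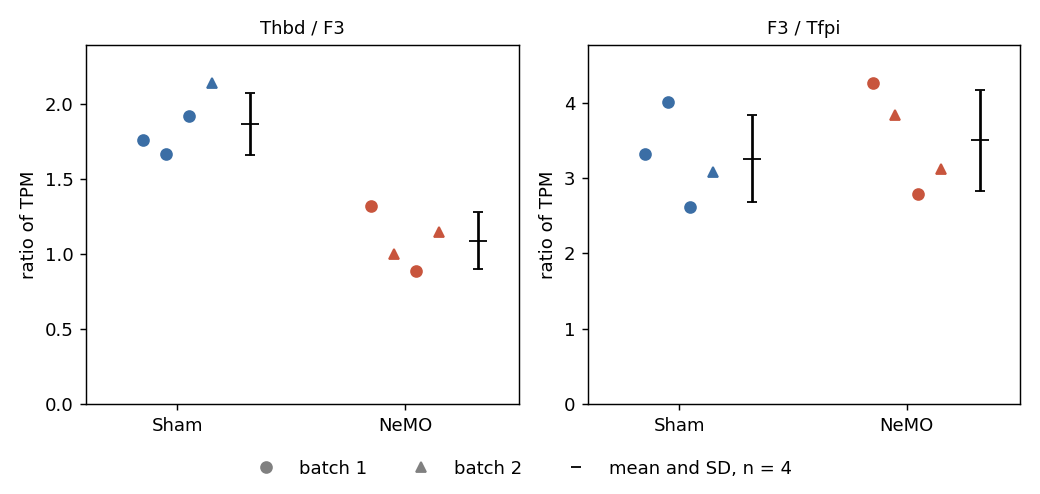
Ratios of TPM per library, from 0, for Thbd over F3 (left) and for F3 over Tfpi (right). Circles are batch 1, triangles batch 2, and the dash and bar the mean and SD (n = 4). The left ratio is 0.889 to 1.32 in NeMO and 1.67 to 2.14 in Sham, and the right one overlaps between the groups.

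The wider plasminogen system gave no gene past the threshold. Of 26 listed genes, members included, 25 had a count and 18 were tested, and 0 rose, 0 fell and 18 did not pass in edgeR. An unadjusted p under 0.05 was found for 3 above 0 and 1 below, against 18.5% of all genes tested, and 2 rose with DESeq2 (Itgav and Ahnak), against 5.43% of all genes called by it. The median log2 fold change was 0.07. Plasminogen itself (Plg), made mainly in liver, had 1, 0, 2 and 0 counts in the NeMO libraries and 0 in each Sham library. A count of 0 allows up to 3 counts, or 0.0825 to 0.110 CPM, which covers counting error only.

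No docking or clearance gene of the system passed the test. The plasminogen receptor gene Plgrkt was at 49.0 ± 1.84 CPM in NeMO and 48.3 ± 5 in Sham, and Anxa2, which binds plasminogen and tissue-type activator, at 387 ± 47.7 and 406 ± 49.2. Its partner S100a10 stood at 97.6 ± 27.8 and 113 ± 24.8 CPM. Lrp1, the endocytic receptor that clears activator and serpin complexes, was at 698 ± 62.0 and 652 ± 63.0 (a log2 difference of 0.10, SE 0.11), and −0.06 after the correction for transcript length. Itgav, the alpha chain of integrins that bind vitronectin beside the urokinase receptor, was at 158, 117, 149 and 115 CPM in NeMO and 104, 114, 110 and 96.6 in Sham. Its groups did not overlap (a log2 difference of 0.41, SE 0.07, edgeR adjusted p = 0.0691). Ahnak, whose large protein binds the annexin A2 and S100A10 pair, also did not overlap (1435 ± 108 against 1144 ± 93.2 CPM, a log2 difference of 0.36, SE 0.10, edgeR adjusted p = 0.133). Over all genes tested, 8.19% had groups without overlap. After the correction for transcript length, Itgav was at 0.30 and Ahnak at 0.19 (limma adjusted p = 0.201 and 0.492).

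Among the serpin family 61 symbols were listed, 43 had a count and 21 were tested. In edgeR 0 rose, 0 fell and 21 did not pass. Of the 21, 1 above 0 and 3 below had an unadjusted p under 0.05 (18.5% over all genes), and 10 lay above 0 (48.3% over all genes). With DESeq2 2 fell (Serpina3b and Serpina3c), where 5.43% of all genes were called. Serping1, the C1 inhibitor, which also restrains contact-phase proteases, measured 384 ± 48.0 CPM in NeMO and 501 ± 83.6 in Sham, with no overlap (a log2 difference of −0.33, SE 0.12, edgeR adjusted p = 0.204). Serpinh1, a collagen chaperone rather than an inhibitor, was at 647 ± 196 and 657 ± 248 CPM (a log2 difference of −0.07, SE 0.27), and at 0.28 in batch 1 alone. Serpina3c was at 4.42 ± 1.59 against 9.39 ± 5.26 CPM (a log2 difference of −1.16, SE 0.33, edgeR adjusted p = 0.142), and −1.71 and past the threshold without NeMO replicate 1 (edgeR adjusted p = 0.0101). Serpina3b was at 0.377 ± 0.356 against 1.38 ± 0.650 CPM (−2.56, SE 0.50, edgeR adjusted p = 0.0786). The Serpina3 genes are a cluster of close copies, so the assignment of their reads is uncertain. The neuronal serpin gene Serpini1, an inhibitor of tissue-type activator, was at 5.85 ± 1.28 and 5.52 ± 0.769 CPM. The plasmin inhibitor gene Serpinf2 (0 to 5 counts in NeMO, 0 to 8 in Sham) and Serpinb2, whose product inhibits urokinase (3 to 10 and 8 to 18 counts), were too low to test.

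Of 34 genes of clotting and its control, 31 had a count and 23 were tested. In edgeR 0 rose, 0 fell and 23 did not pass. On the higher side 4 and on the lower side 3 had an unadjusted p under 0.05 (18.5% over all genes), and the median was 0.08. With DESeq2 3 rose (F3, F2r and Pros1) and 1 fell (F13a1), beside 5.43% of all genes called. F2r, the main thrombin receptor, measured 28.7, 18.2, 38.7 and 32.6 CPM in NeMO and 22.9, 18.2, 18.8 and 15.7 in Sham (a log2 difference of 0.73, SE 0.19, edgeR adjusted p = 0.121). Only NeMO replicate 2 lay within the Sham range. F2rl1, a receptor cut by trypsin-like proteases, stood at 15.7 ± 2.00 and 14.4 ± 2.42 CPM and did not pass. Pros1, the cofactor of activated protein C, was at 88.6 ± 23.2 and 69.0 ± 8.97 CPM (0.45, SE 0.12, edgeR adjusted p = 0.131), and 0.56 and past the threshold without NeMO replicate 1 (edgeR adjusted p = 0.0411).

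F13a1, the fibrin-crosslinking subunit made by macrophages and platelets, was at 55.8 ± 22.3 CPM in NeMO and 101 ± 14.7 in Sham (a log2 difference of −0.75, SE 0.25, edgeR adjusted p = 0.186). The summed level of 11 macrophage markers ran from 407 to 940 CPM in NeMO and from 751 to 1090 in Sham, with 1 of the 11 higher in NeMO. The macrophage sum was lowest in NeMO replicate 2, where F13a1 was lowest too (32.2 CPM). Among NeMO libraries that sum was highest in NeMO replicate 3 (940 CPM), where F13a1, at 45.7 CPM, was below every Sham library. The summed level of 7 platelet markers, of which 4 were tested and 2 (Gp9 and Gp6) had under 10 counts in every library, ran from 16.4 to 26.9 and from 23.7 to 34.9 CPM. Of the 4 platelet markers tested, 2 were higher in NeMO (Gp1bb and Itga2b). Pf4, the most abundant of the list, was at 13.5 CPM in NeMO and 23.4 in Sham. The part of macrophages and platelets in the F13a1 value was not tested. Vwf (89.4 ± 16.7 and 84.3 ± 8.47 CPM) and the protein C receptor gene Procr (16.8 ± 5.22 and 15.6 ± 1.81), both endothelial, did not pass. Tfpi2, a relative of Tfpi found in matrix, was at 3.12 ± 1.34 and 2.70 ± 0.637 CPM.

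Among 91 genes of trypsin-like and related serine proteases, 63 had a count and 31 were tested. Prss23 alone rose in edgeR, 0 fell and 30 did not pass. Unadjusted p-values under 0.05 numbered 5 above 0 and 3 below (18.5% over all genes), the median was −0.09, and 11 of 31 lay above 0 (48.3% over all genes). With DESeq2 3 rose (Prss23, Htra4 and Prss32), where 5.43% of all genes were called. The secreted HtrA proteases Htra1 (163 ± 26.9 and 177 ± 25.8 CPM) and Htra3 (123 ± 7.57 and 154 ± 31.3, a log2 difference of −0.35, SE 0.14, edgeR adjusted p = 0.242) were level or below Sham in mean. The epithelial protease matriptase, St14, was at 69.0 ± 12.7 and 68.9 ± 11.4 CPM.

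Proteases, inhibitors and substrates linked to plasmin gave no call. Of 22 listed genes, all had a count and 20 were tested, and in edgeR 0 rose, 0 fell and 20 did not pass. Of the 20, 9 above 0 and 2 below had an unadjusted p under 0.05, beside 9.38% and 9.14% of all genes. Above 0 lay 16 of 20, beside 48.3% of all genes, and the median was 0.32. With DESeq2 5 rose and 1 fell, where 5.43% of all genes were called. The fibronectin gene Fn1, a matrix substrate of plasmin, measured 4668, 2146, 4323 and 4780 CPM in NeMO and 1435, 1569, 1321 and 1608 in Sham, without overlap (a log2 difference of 1.45, SE 0.24, edgeR adjusted p = 0.0691). Tgfb2, a growth factor released from latency by several proteases, was at 46.0 ± 7.25 and 30.5 ± 2.84 CPM (0.62, SE 0.12, edgeR adjusted p = 0.0786). The gelatinase gene Mmp2 was at 548 ± 245 and 302 ± 52.8 CPM (0.92, SE 0.29, edgeR adjusted p = 0.176), 0.48 without NeMO replicate 3, and 1.18 and past the threshold without NeMO replicate 1 (edgeR adjusted p = 0.0441). Mmp14, its membrane activator, stood at 0.36 (SE 0.15), and Mmp3 at 0.91 (SE 0.67), or 0.08 without NeMO replicate 3. The hepatocyte growth factor gene Hgf, whose proform serine proteases cut, was at 10 ± 1.80 and 8.14 ± 1.5 CPM. The most abundant inhibitor on the list, Timp2, was at 826 ± 80.2 and 844 ± 46.8 CPM.

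**Figure D5:**
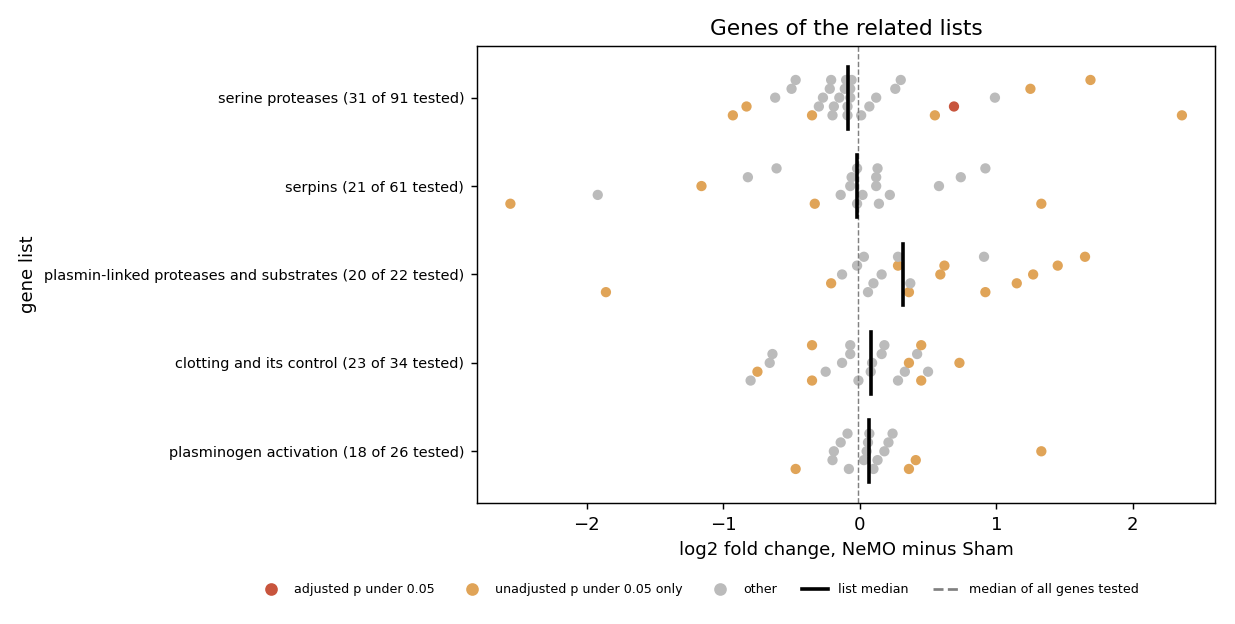
Log2 fold change, NeMO minus Sham, of each tested gene in the 5 related lists. Red is an adjusted p under 0.05 in edgeR, orange an unadjusted p under 0.05 only, grey the rest, black bars the list medians and the dashed line the median of all genes tested (−0.01). The single red point is Prss23, and the list of plasmin-linked genes has a median of 0.32.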

How the data were processed

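For each library the authors deposited a file of read counts by gene symbol, as whole numbers. The tools listed in the submitters' processing notes, without versions or roles, are STAR, Trimmomatic, DESeq2 and featureCounts, and the build is mm10. Per the labels' protocols, libraries came from a directional kit and were read single-end. Their annotation is not given in the sources used here. The fits used edgeR 4.0.16, DESeq2 1.42.0 and limma 3.58.1 under R 4.3.3: filterByExpr on group (minimum count 10, minimum total 15; 16370 genes kept), TMM scaling, and the robust quasi-likelihood F-test on a two-sided contrast of the groups beside a batch term, adjusted by Benjamini-Hochberg over all genes tested, threshold 0.05. Batches are those numbered as such in the submitted file names, which do not say what was handled together. CPM are after TMM. TPM used the merged exonic length of GENCODE M21, in which 35656 of 38926 symbols matched directly and 1742 by a RefSeq synonym. The macrophage marker Adgre1 was found under its older symbol. The fit was tested on simulated data. All pairs of libraries in a group differed by more than sampling noise.

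The members, lists and rule for named genes were chosen with earlier results of these data known. The rule takes the members, 25 set pathway genes, per list the called genes or, with none, the 2 of smallest p and the 2 most abundant, and per member the 3 genes with the closest profile. Mmp9 and Htra4 were chosen after their values were seen. Alternatives were another scaling, DESeq2, no filter, no batch term, single batches, a replicate block, a length correction and leaving out each library. A further pathway gene is not reported here and stays out of the lists.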

Additional observations from a re-analysis of the deposited data

Results flagged for a closer look

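In 3 of 84 groups of 4 libraries screened, 1 library stood far from the others of its group by Dixon's criterion, which chance meets in about 5% of groups. Thbd in NeMO replicate 1 was at 106 CPM, with the other NeMO libraries at 70.2 to 73.2. Serping1 in Sham replicate 1 was at 625 CPM, with the others at 445 to 470. Timp2 in NeMO replicate 1 was at 945 CPM, with the others at 773 to 800.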

How the results depend on the processing

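Prss23 kept its sign in all alternatives run and its call in 6 of 16 (another scaling, no filter, DESeq2, the length correction, and without NeMO replicate 1 or 2). The fits without Sham replicate 4 and in batch 1 alone estimate the same contrast, so their log2 values are not separate checks. Of the 9 members, 2 passed with DESeq2 and with no filter, 0 without the batch term, in batch 1 or in batch 2 alone, and 0 to 2 with 1 library left out. With DESeq2, 2 plasminogen, 2 serpin, 4 clotting, 3 protease and 6 plasmin-linked genes passed. With no filter, 1 gene of each of these lists passed. Batch 2 alone, which rests on 1 Sham library, gave 1 plasmin-linked and 0 protease genes, and batch 1 alone and the fit without batch gave 0 proteases. With 1 library left out, 0 to 2 plasminogen, serpin and clotting genes, 0 to 1 proteases and 0 to 4 plasmin-linked genes passed. The largest counts came without NeMO replicate 1. Over all genes 12 passed, against 865 with DESeq2, 172 with no filter, 7 without batch, 0 in batch 1, 7 in batch 2, 18 after the length correction, and 0 to 652 with 1 library left out (652 without NeMO replicate 1, 50 without NeMO replicate 2, 0 without NeMO replicate 4 or Sham replicate 4). The causes were not tested.

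The deviations of same-numbered libraries correlated at −0.01, 0.08, 0.04 and 0.32 for replicates 1 to 4, and 2 of 4 correlated best with their own number. Only the pair numbered 4 was over 0.1, so the numbers were not taken as pairs. With the replicate block in place of batch, Prss23 was at 0.64 (edgeR adjusted p = 0.0954), and 0 members, 0 proteases and 0 genes in all passed.

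Values that changed sign were those of genes that did not pass in any fit concerned. In batch 2 alone these were Plau (0.03), Plaur (−0.14), Plat (−0.16), Serpinf1 (−0.04), Lrp1 (−0.11), F2rl1 (−0.02), Vwf (−0.21) and Procr (−0.04). In batch 1 alone they were Plgrkt (−0.05), Serpinh1 (0.28), Htra1 (0.01), Anxa5 (0.02) and Timp2 (0.02). After the length correction they were Plau (0.02), Lrp1 (−0.06), Vwf (−0.08), Htra1 (0.02), Anxa5 (0.06) and Timp2 (0.01), and without batch St14 (0.00). With 1 library left out, Plau ran from −0.17 to 0.05, Plat from −0.11 to 0.19, Serpinf1 from −0.07 to 0.24, Plgrkt from −0.05 to 0.12 and Serpini1 from −0.01 to 0.25. Serpinh1 ran from −0.36 to 0.28, Tfpi2 from −0.00 to 0.62, F2rl1 from −0.05 to 0.16, Vwf from −0.03 to 0.26, Procr from −0.10 to 0.31, Htra1 from −0.14 to 0.01, Anxa5 from −0.12 to 0.02 and Timp2 from −0.10 to 0.05. At these depths members had at least 223 counts, so spread between libraries, more than counting, set their errors.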

Other observations

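A pair of proteases outside the members, chosen after their values were seen, had groups that did not overlap and did not pass edgeR's test. Mmp9, the gelatinase B gene, was at 17.4, 7.78, 4.31 and 8.94 CPM in NeMO replicates 1 to 4 and 36.0, 24.3, 33.3 and 45.2 in Sham. Its log2 fold change was −1.86 (SE 0.43, edgeR adjusted p = 0.118, DESeq2 adjusted p = 0.00893), opposite in sign to the other gelatinase gene, Mmp2, at 0.92. Without NeMO replicate 1 it was −2.63 and passed (edgeR adjusted p = 9.79e-04). The macrophage marker sum was 407 to 940 CPM in NeMO and 751 to 1090 in Sham, with 1 of 11 markers higher in NeMO. The sum of 8 neutrophil markers, of which Ly6g had under 10 counts in every library, was 3.15 to 14.9 and 3.56 to 6.54. Only 4 neutrophil markers were high enough to test. All 4 were higher in NeMO (median log2 fold change 0.65), and 0 passed edgeR's test. The part of macrophages and neutrophils in the Mmp9 value was not tested. Htra4, an HtrA family protease gene, was low in every library, at 2.67, 2.72, 3.03 and 3.35 CPM in NeMO and 1.89, 1.52, 1.23 and 0.722 in Sham (a log2 difference of 1.25, SE 0.31, edgeR adjusted p = 0.109, DESeq2 adjusted p = 0.00568).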
